A study of Rattus norvegicus with 9 samples.

Results

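Interferon-stimulated genes were examined in the left ventricle of adult male Sprague-Dawley rats at day 28 after myocardial infarction. The set was 9 genes, Isg15, Irf1, Irf7, Mx1, Mx2, Ifit2, Ifit3, Rsad2 and Gbp2, chosen by name from the 35843 genes of the expression table, and each name matched 1 row. RNA-seq covered 3 groups of 3 samples, which the study calls biological replicates. Each sample title names more than 1 part, and what the parts are is not stated. Each title was taken here as 1 rat, and whether a sample held tissue of more than 1 animal is not known. The Sham group had the chest operation without a ligature and received saline by daily gavage, the MI group had the left anterior descending artery tied off for good with silk and received saline, and the MI + DAPA (1st d) group had the same ligation and received dapagliflozin, an inhibitor of the kidney's sodium-glucose cotransporter, at 1 mg/kg daily from the first day. By the study's methods, tissue for molecular work was taken mainly at the border of the infarct with the scar cut away, and at the matching region in the Sham group. For the RNA-seq itself the methods name the left ventricle and the results name infarct myocardium. How much scar these libraries held is therefore not known. Levels were given as FPKM, fragment counts scaled to the length of the gene and to a denominator per library. That denominator was not the total reads here, as given below. Levels are per length and can be set side by side between genes.

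Interferons are secreted alarm proteins. Type I interferons bind the receptor made of Ifnar1 and Ifnar2 and lead to factors, Stat2 and Irf9 among them, that bind the interferon-stimulated response element, whereas interferon-gamma leads to factors that bind the gamma-activated site. The genes switched on this way make antiviral and antigen-handling proteins, and in the infarcted heart they are known from macrophages and other cells that sense nucleic acids released by dying tissue. Of the 9 genes, Irf1 and Irf7 encode transcription factors of the pathway, Mx1, Mx2, Ifit2, Ifit3 and Rsad2 encode antiviral effectors, Isg15 encodes a ubiquitin-like modifier, and Gbp2 encodes a guanylate-binding GTPase that is typical of the interferon-gamma response.

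The start regions of these genes were searched for the elements that the pathway's factors are known to bind. RefSeq promoter windows (build GRCr8, 250 bases before to 50 after the annotated start) were listed for 6 of the 9 genes, namely Irf1, Irf7, Mx1, Ifit3, Rsad2 and Gbp2. Both strands were searched for the core of the response element, GAAANNGAAA or its reverse complement TTTCNNTTTC, and for the gamma-activated site, TTCNNNGAA, which reads the same on both strands. The response element core was found in 4 of the 6 windows against 3.92% of all 33469 windows, and the gamma-activated site in 1 of the 6, that of Irf1, against 8.87%. None of the 6 windows held both motifs. The Mx1 window held neither, which says only that these letters were not in that window. Below are the 200 bases before the start of the 5 genes with a match, shown to place the motif letters in the genes whose levels follow, with each match in capitals.
Irf7, chr1:205800024-205800223, minus strand: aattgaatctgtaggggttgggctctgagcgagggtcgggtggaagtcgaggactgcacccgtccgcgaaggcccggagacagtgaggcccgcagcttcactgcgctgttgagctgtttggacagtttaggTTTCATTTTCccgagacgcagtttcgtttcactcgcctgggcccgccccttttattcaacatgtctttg
Ifit3, chr1:241527126-241527325, plus strand: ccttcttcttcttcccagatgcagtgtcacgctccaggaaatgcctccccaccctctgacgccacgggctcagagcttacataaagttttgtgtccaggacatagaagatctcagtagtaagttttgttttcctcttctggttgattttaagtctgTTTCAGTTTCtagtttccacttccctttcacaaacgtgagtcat
Rsad2, chr6:48788121-48788320, minus strand: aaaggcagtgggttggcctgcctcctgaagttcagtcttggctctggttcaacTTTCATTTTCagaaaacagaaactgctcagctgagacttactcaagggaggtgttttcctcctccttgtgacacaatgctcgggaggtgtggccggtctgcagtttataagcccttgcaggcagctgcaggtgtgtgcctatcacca
Gbp2, chr2:234005527-234005726, plus strand: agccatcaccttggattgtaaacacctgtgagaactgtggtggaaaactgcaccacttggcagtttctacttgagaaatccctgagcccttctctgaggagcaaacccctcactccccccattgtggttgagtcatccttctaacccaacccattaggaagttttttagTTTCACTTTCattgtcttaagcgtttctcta
Irf1, chr10:38417735-38417934, plus strand: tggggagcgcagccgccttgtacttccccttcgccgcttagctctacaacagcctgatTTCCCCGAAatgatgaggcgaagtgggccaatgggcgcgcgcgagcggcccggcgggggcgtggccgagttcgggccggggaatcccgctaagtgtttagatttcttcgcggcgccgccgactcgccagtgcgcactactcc
The response element core began 69 bases before the start in Irf7, 44 in Ifit3, 147 in Rsad2 and 31 in Gbp2, and the letters were identical in Irf7 and Rsad2. In Irf1 the gamma-activated site began 142 bases before the start. A match is a description of sequence and was not tested for binding. In the order of genes along RefSeq's rat assembly, Ifit2 lies beside Ifit3, which lies beside Ifit1bl, and Rsad2 lies beside Cmpk2, another gene of the response.

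The libraries held 13601995 to 17212082 counted reads, recovered from the FPKM steps. The mitochondrial genome took 61.1 to 66.9% of the reads in Sham, 7.07 to 19.1% in MI and 17.5 to 32.0% in MI + DAPA. The deposited FPKM values were not divided by the total reads: the denominators were 0.512 to 0.619 times the recovered reads in Sham and 1.19 to 1.30 times in MI, and median-of-ratios factors of the deposited values lay between 0.994 and 1.01, so that the median gene is level between the groups. All 10 cardiomyocyte markers, such as Tnnt2 and Myh6, were above 0 in every rat. Each of the 9 genes rested on 171 to 21562 reads per rat, so counting error was at most 7.65% of a value.

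One library stood apart for this gene set and is named before the results. MI + DAPA rat 3 had the highest level of all 9 rats in 9 of the 9 genes, while over the 14157 genes that reached an FPKM of 1 in 3 or more rats it was the highest in 6.65%. Its level was 1.97 (Irf1) to 38.1 (Mx1) times that of the higher of the other 2 MI + DAPA rats, with a median of 14.0 times over the 9 genes. It was also 1.26 (Irf1) to 7.58 (Mx1) times the highest of the other 8 rats. This order held for 9 of 9 genes under each of the 4 scalings tried. Results that involve the MI + DAPA group are therefore given with and without this rat. The rat was picked from the levels of these same genes, so leaving it out lowers their MI + DAPA means by construction. Calls and p-values without it describe the other 2 rats and are not independent results.

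**Figure D1:**
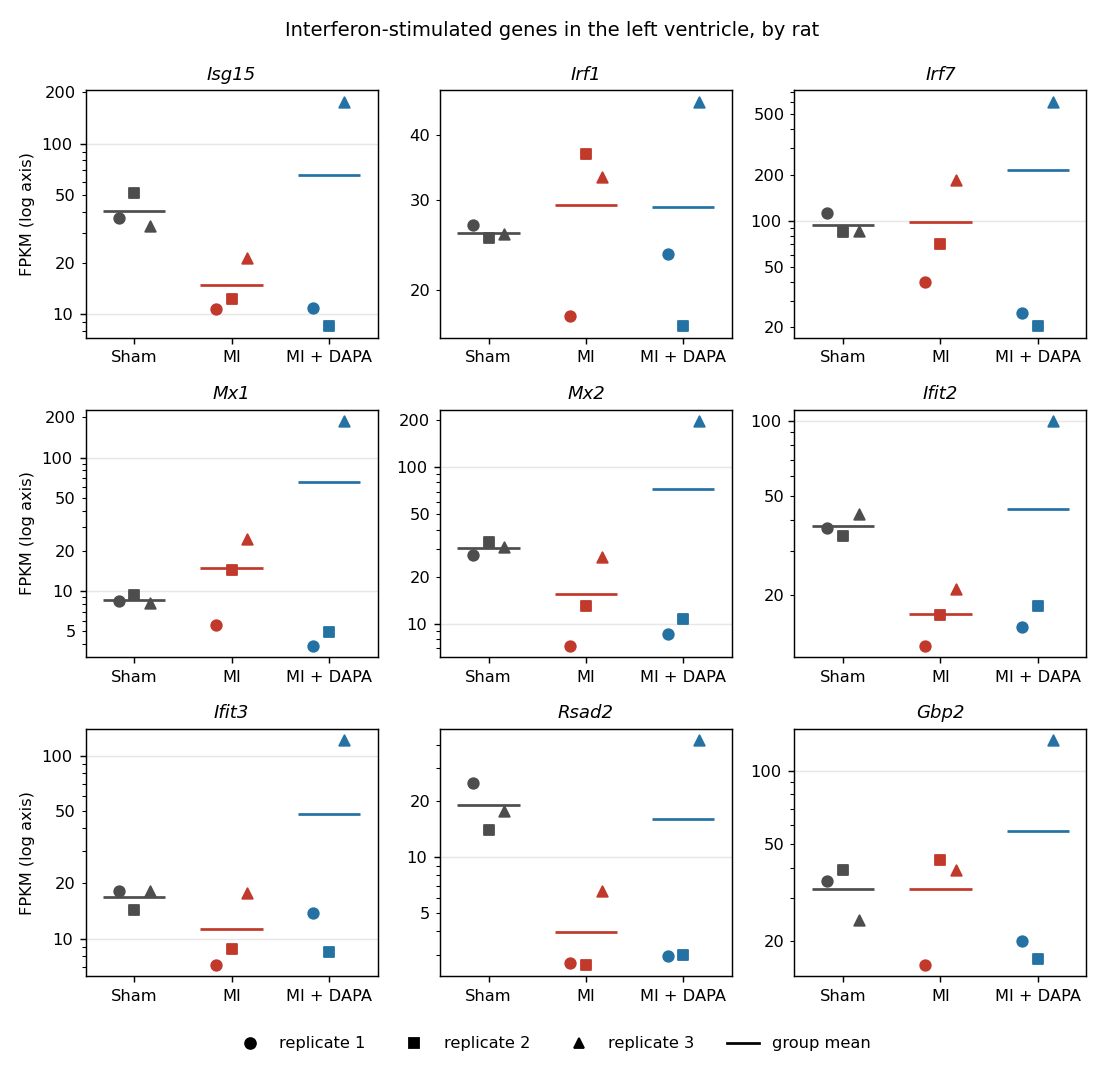
FPKM (log axis, range set per gene) of each of the 9 genes in each rat, by group; marker shapes give the replicate number and horizontal lines the group means. MI + DAPA replicate 3 is the highest point in all 9 panels, and the other 2 MI + DAPA rats lie below all 3 Sham rats in each.

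The 3 groups differed in how closely their rats agreed. Within Sham, the highest rat exceeded the lowest by a median of 1.28 times over the 9 genes (range 1.06 to 1.78). Within MI the median was 2.49 times (1.69 to 4.70). Within MI + DAPA it was 14.3 times (2.73 to 48.0), and between MI + DAPA rats 1 and 2 alone it was 1.26 times (1.02 to 1.63). On log2(FPKM + 1) the SD of the 9 genes had a median of 0.19 in Sham, 0.63 in MI and 1.99 in MI + DAPA, where the median over all 14157 genes was 0.26, 0.21 and 0.25. In the MI + DAPA group 8 of the 9 genes, all but Irf1, had an SD above the 95th percentile of all genes, against 3 in MI (Irf7, Mx1 and Mx2) and 0 in Sham. In MI, rat 1 was the lowest of its group in 8 of the 9 genes and rat 3 the highest in 7.

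The first comparison, MI against Sham, asked how the genes stood in the infarcted left ventricle after 28 days. On the deposited FPKM scale none of the 9 passed the test as higher, and 4 passed it as lower, namely Rsad2, Isg15, Ifit2 and Mx2, whereas on TPM over all genes, given further on, 0 were lower and 4 higher. The test was limma on log2(FPKM + 1), and a gene was called at an unadjusted p under 0.05 with an absolute log2 fold change over 1, as the study set its thresholds. Of all 13485 genes tested, 10.3% were called lower and 12.1% higher by this rule. Of the 4 genes, 3 also passed at a Benjamini-Hochberg adjusted p under 0.05, where 9.93% of all genes were called lower. The median log2 fold change of the 9 genes was -0.63, beside -0.0050 over all genes tested. When all 9 rats entered one fit, so that the spread of the MI + DAPA rats was pooled in, Rsad2 alone was called (limma adjusted p = 0.070).

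Rsad2, which encodes viperin, an enzyme that makes a chain-terminating nucleotide, showed the largest difference of the 9. Its FPKM was 24.9, 14.0 and 17.7 in the Sham rats, 2.70, 2.64 and 6.55 in the MI rats, and 2.94, 3.01 and 42.2 in the MI + DAPA rats. The Sham and MI rats did not overlap. The means were 18.9 ± 5.52 in Sham and 3.96 ± 2.24 in MI (SD, n = 3), and Rsad2 fell by 2.06 on the log2 scale (SE 0.34, 95% CI -2.85 to -1.26, limma adjusted p = 0.0044), a 4.16-fold change.

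Isg15, whose product is joined to other proteins much as ubiquitin is, had an FPKM of 36.5, 51.1 and 32.9 in Sham, 10.7, 12.3 and 21.2 in MI, and 10.8, 8.48 and 177 in MI + DAPA. Every MI rat lay below every Sham rat. Isg15 fell by 1.42 from Sham to MI on the log2 scale (SE 0.28, limma adjusted p = 0.0082), a 2.67-fold change.

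The IFIT proteins bind RNA and one another. Ifit2 had an FPKM of 37.1, 34.7 and 42.4 in Sham, 12.6, 16.7 and 21.3 in MI, and 14.9, 18.1 and 99.98 in MI + DAPA, and the Sham and MI rats did not overlap. It fell by 1.16 from Sham to MI (SE 0.20, limma adjusted p = 0.0055), and without MI rat 1 by 0.97, under the fold threshold. Its neighbour Ifit3 had 18.2, 14.2 and 18.1 in Sham, 7.16, 8.81 and 17.8 in MI, and 13.8, 8.46 and 121 in MI + DAPA. There MI rat 3 lay within the Sham range, and the difference of -0.63 did not pass the test (95% CI -1.36 to 0.10, limma adjusted p = 0.15).

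The Mx genes encode dynamin-like GTPases that block viruses. Mx2 had an FPKM of 27.4, 33.5 and 31.1 in Sham, 7.23, 12.9 and 26.5 in MI, and 8.53, 10.8 and 198 in MI + DAPA. The highest MI rat lay just under the lowest Sham rat, and Mx2 was called lower in MI, by 1.10 on the log2 scale (log2 fold change -1.10, SE 0.40, limma adjusted p = 0.065). Mx2 lost its call when any rat other than MI rat 3 was left out, which raised its unadjusted p over 0.05. Mx1 had 8.45, 9.31 and 8.15 in Sham, 5.62, 14.4 and 24.8 in MI, and 3.91, 4.92 and 188 in MI + DAPA. Its MI rats lay on both sides of the narrow Sham range, and the log2 fold change of 0.52 did not pass the test (95% CI -0.53 to 1.57, limma adjusted p = 0.39). Without MI rat 1 it was 1.05 and passed (limma adjusted p = 0.029).

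The transcription factors and Gbp2 showed no called difference between MI and Sham. Irf7, which amplifies the type I response, had an FPKM of 113, 84.1 and 85.2 in Sham, 39.5, 70.4 and 186 in MI, and 24.7, 20.4 and 604 in MI + DAPA. Its MI rats spanned the Sham range, and the log2 fold change was -0.21 (95% CI -1.40 to 0.98, limma adjusted p = 0.77). Irf1, which carries the gamma-activated site shown above, had 26.7, 25.3 and 25.7 in Sham, 17.8, 36.8 and 33.3 in MI, and 23.6, 17.0 and 46.5 in MI + DAPA. It was the steadiest of the 9 in Sham and differed least of the 9 between MI + DAPA rat 3 and the other rats of its group. Its log2 fold change in MI was 0.11 (95% CI -0.51 to 0.73, limma adjusted p = 0.77). Gbp2 had 35.2, 39.1 and 24.4 in Sham, 16.0, 43.3 and 39.1 in MI, and 20.1, 16.9 and 133 in MI + DAPA. MI rat 2 lay above the Sham range, rat 3 inside it near its top and rat 1 below it, with a log2 fold change of -0.10 (95% CI -0.99 to 0.80, limma adjusted p = 0.86).

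**Figure D2:**
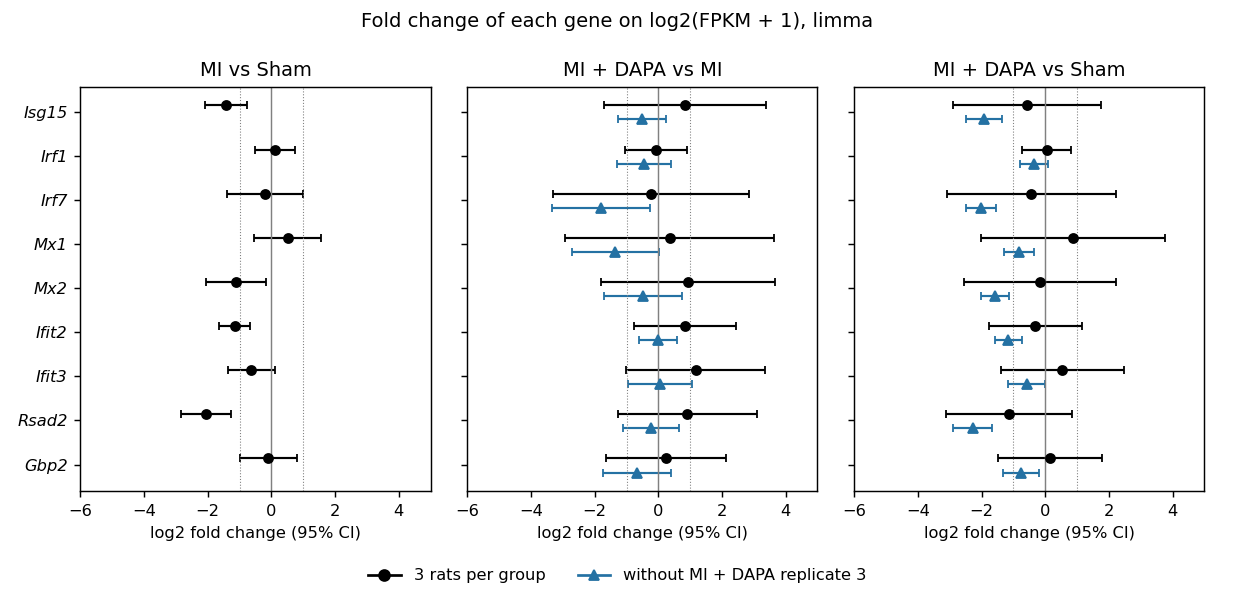
Log2 fold change of each gene with its 95% confidence interval from limma on log2(FPKM + 1), for the 3 comparisons; circles use 3 rats per group, triangles leave out MI + DAPA replicate 3, and dotted lines mark a log2 fold change of 1 in either direction. For MI vs Sham, Rsad2, Isg15, Ifit2 and Mx2 lie past -1 on this scale (on TPM over all genes only Rsad2 stays below 0), and in both MI + DAPA comparisons the intervals narrow without replicate 3, most so against Sham.

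The lower calls in MI depended on how the libraries were scaled. When FPKM was rescaled to TPM over all genes, so that every library sums to the same total with its mitochondrial transcripts, the median of all genes in MI moved to 1.28 above Sham on the log2 scale. The share of all genes called higher was then 64.6%. On that scale 0 of the 9 genes were called lower and 4, Gbp2, Irf1, Irf7 and Mx1, were called higher. Isg15 stood at 0.07, Ifit2 at 0.34 and Mx2 at 0.37, and Rsad2 at -0.69 did not pass (limma adjusted p = 0.078). Relative to the median gene the order of the 9 was kept on TPM, with Rsad2 at -1.97, Isg15 at -1.21, Ifit2 at -0.94, Mx2 at -0.91 and Mx1 at 0.62. TPM without the mitochondrial genome gave the same 4 genes as lower, with Rsad2 at -2.09 and Mx2 at -1.14.

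**Figure D3:**
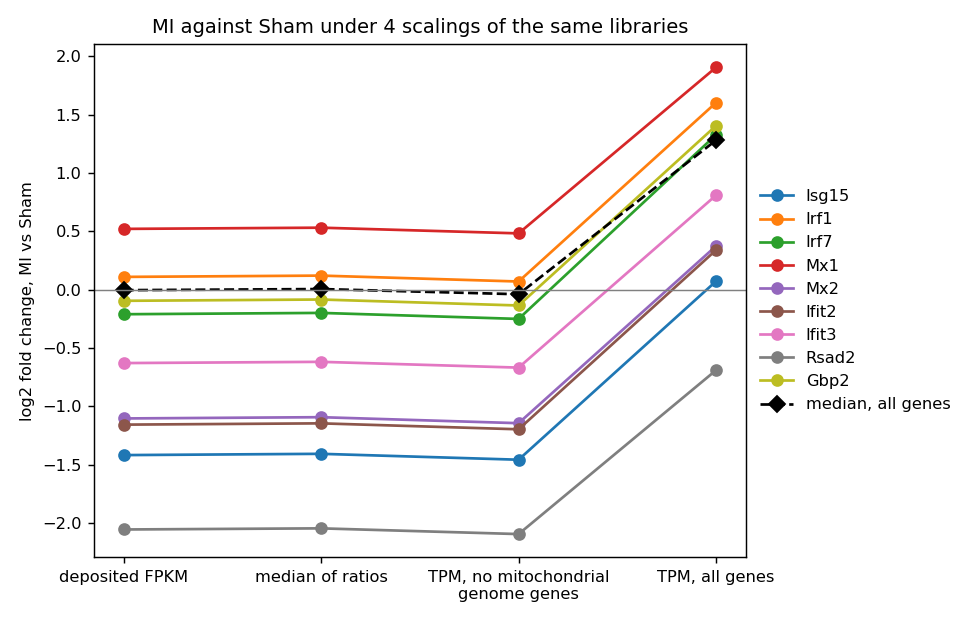
Log2 fold change of the 9 genes in MI against Sham (vertical axis) under 4 scalings of the same libraries (horizontal axis); coloured lines are genes and the dashed black line is the median of all genes tested. The first 3 scalings give nearly equal values, and TPM over all genes lifts every gene and the median, which reaches 1.28.

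Marker genes of other cell types moved between Sham and MI as well. In a bulk sample, fewer cells of a type and less RNA per cell cannot be told apart. Of 7 endothelial markers tested, 5 were called lower in MI, and their summed FPKM was 1041 to 1237 in Sham and 282.6 to 366 in MI, whereas on TPM over all genes 1 was called lower and 1 higher. All 9 macrophage markers tested were called higher, with sums of 98.1 to 218 in Sham and 819 to 1567 in MI. All 8 fibroblast markers were called higher too, and both counts were the same on TPM over all genes. Of 10 cardiomyocyte markers 2 were called higher and 2 lower, and of 8 T cell markers 3 were called higher and 0 lower. Over all genes 12.1% were called higher and 10.3% lower, and on TPM 64.6% and 1.34%. The part of these shifts in the levels of the 9 genes was not tested.

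The second comparison, MI + DAPA (1st d) against MI, asked whether dapagliflozin altered the genes in the infarcted heart. None of the 9 was called in either direction by limma, and none had an unadjusted p under 0.05 (range 0.246 to 0.868). Of all 13251 genes tested, 0.951% were called higher and 1.11% lower, and 0 of them passed at an adjusted p under 0.05. The log2 fold changes ran from -0.23 for Irf7 to 1.17 for Ifit3, and 7 of the 9 were above 0. The intervals were wide: for Mx1, the log2 fold change of 0.35 had a 95% CI of -2.93 to 3.64, and for Ifit3 the interval was -1.02 to 3.35. The group means followed rat 3, for example in Irf7 with 216 ± 336 in MI + DAPA and 98.5 ± 77.0 in MI (SD, n = 3).

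Without MI + DAPA rat 3, which was picked for its high levels of these genes, the direction turned for most of them. The log2 fold change was then below 0 in 8 of 9 genes, all but Ifit3 at 0.05. Irf7 was called lower (log2 fold change -1.80, 95% CI -3.33 to -0.27, limma adjusted p = 0.34), and 1.58% of the 12942 genes tested were called lower by the same rule. Mx1 stood at -1.36 and missed the threshold (limma adjusted p = 0.35). In Irf7 and Mx1 both remaining MI + DAPA rats lay below all 3 MI rats. In the other 7 genes they overlapped the MI rats. On TPM over all genes they lay below all 3 MI rats in 8 of the 9 genes, and without the mitochondrial genome in 3.

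The third comparison, MI + DAPA (1st d) against Sham, asked whether treated hearts differed from hearts without an infarct. It shares the Sham rats with the first comparison and the MI + DAPA rats with the second, so the 3 sets of fold changes are not independent. None of the 9 genes was called by limma with all rats, and none had an unadjusted p under 0.05, where 9.54% of the 13359 genes tested were called higher and 8.16% lower. Rsad2 had the largest difference, at -1.14 (95% CI -3.13 to 0.85, limma adjusted p = 0.35), and Mx1 stood at 0.87 (95% CI -2.02 to 3.77). On TPM over all genes Irf1 was called higher, where 48.6% of all genes tested were.

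Leaving out MI + DAPA rat 3 gave 5 of the 9 genes as lower than Sham, where 8.48% of the 12879 genes tested were called lower. That rat was picked for its high levels of these 9 genes and not of all genes. The calls and p-values without it are therefore descriptions only. MI + DAPA rats 1 and 2 lay below all 3 Sham rats in 9 of 9 genes, although on TPM over all genes this was so in 5. Rsad2 stood at -2.29 (SE 0.26, limma adjusted p = 0.0054) and Irf7 at -2.01 (SE 0.20, limma adjusted p = 0.0050). Isg15 stood at -1.94, Mx2 at -1.58 and Ifit2 at -1.16, with limma adjusted p of 0.0061, 0.0057 and 0.0099. Mx1 at -0.84 had an adjusted p of 0.030 but not the fold. Gbp2 at -0.78, Ifit3 at -0.58 and Irf1 at -0.35 were not called. Side by side without rat 3, Rsad2, Isg15, Ifit2 and Mx2 were called lower than Sham in both infarcted groups, and Irf7 in MI + DAPA alone. The change of Irf7 from MI to MI + DAPA without rat 3 is the -1.80 given above.

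The 9 genes varied together from rat to rat. As deviations from the group mean on log2(FPKM + 1), the 36 pairs of genes had a Pearson r of 0.779 to 0.996 over the 9 rats, with a median of 0.959. Without MI + DAPA rat 3 the range was 0.274 to 0.969 with a median of 0.677 over 8 rats. These correlations share libraries and are descriptions only. The 5 other genes whose deviations were most like the mean of the 9 were Ly6e (r = 0.994), Eif2ak2 (0.993), Znfx1 (0.992), Dhx58 (0.988) and Lgals9 (0.987). Eif2ak2 encodes the RNA-activated kinase PKR and Dhx58 encodes LGP2, a cytosolic RNA sensor. Without MI + DAPA rat 3 their r was 0.941 for Ly6e, 0.934 for Eif2ak2, 0.920 for Znfx1, 0.911 for Lgals9 and 0.891 for Dhx58 over 8 rats. In that order they then ranked 16, 21, 26, 31 and 43 in a list of all genes that counts the 9 as well. Slc39a2 and Psmd6, which are in none of the pathway lists used here, ranked 1 and 2. Ly6e and Lgals9 are in none of these lists either. The place of the 5 genes at the top therefore depended on that rat.

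The wider pathway was followed in 137 other genes listed by role, of which 121 were found in the table and 105 reached an FPKM of 1 in 3 or more of the 9 rats. In MI against Sham 103 were tested, and 13 were called lower and 10 higher on the deposited scale, but 0 lower and 63 higher on TPM over all genes, so the directions below are those of the deposited scale. These are 12.6% and 9.71% beside 10.3% and 12.1% of all genes on the deposited scale, and 61.2% higher beside 64.6% on TPM, so the counts lie near the background. MI + DAPA rat 3 was the highest of the 9 rats in 61.0% of these 105 genes. By role it was the highest in 38 of 45 other interferon-stimulated genes and in 15 of 21 genes typical of interferon-gamma. It was the highest in 6 of 14 sensors, 3 of 6 transducers, 0 of 6 receptors and 0 of 6 interferon regulatory factors other than Irf1, Irf7 and Irf9. Among the transducers, Stat2 and Irf9 are named here after their values were seen. Stat2 was 51.0 FPKM in that rat against 13.8 to 24.5 in the other 8, and Irf9 was 69.7 against 18.7 to 38.8. Ifi27l2b, also named after its values were seen, reached 2387 FPKM there and 117 to 487 elsewhere.

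**Figure D4:**
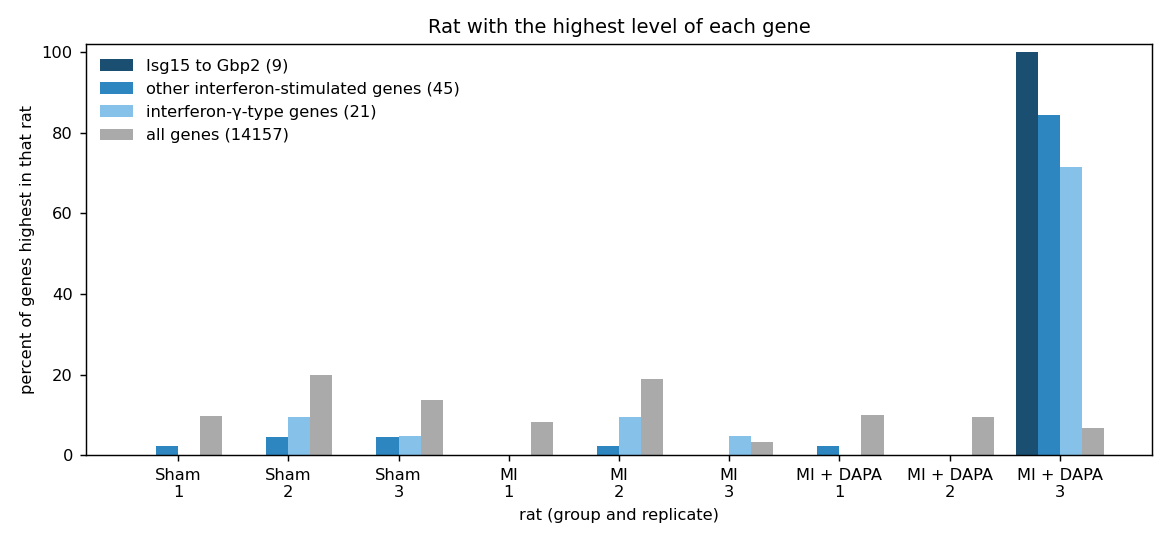
Percent of genes (vertical axis) whose highest level of the 9 rats was in the rat on the horizontal axis, for the 9 genes from Isg15 to Gbp2, 45 other interferon-stimulated genes, 21 interferon-gamma-type genes and all 14157 genes that reached an FPKM of 1 in 3 or more rats. MI + DAPA replicate 3 is the highest rat in 9 of the 9 genes, in 84.4% and 71.4% of the other interferon sets and in 6.65% of all genes.

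The interferons themselves were close to absent from these libraries. Ifnb1, Ifna2, Ifna4, Ifna5, Ifna11, Ifnk, Ifnl1 and Ifnl3 were listed at 0 in all 9 rats, MI + DAPA rat 3 included. Ifne was above 0 in MI rat 1 alone, at 0.0908 FPKM. Ifng, the ligand of the interferon-gamma receptor, was 0 to 0.573 FPKM and was listed at 0 in all 3 MI + DAPA rats. None of the ligands reached the level required for testing. Levels this low in RNA from whole tissue do not show that a ligand was absent from the heart.

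Among the 6 receptors, the 2 chains called in MI moved in opposite directions (16.7% each way, beside 10.3% lower and 12.1% higher over all genes). Ifnar2, a chain of the type I receptor, fell by 1.40 from 27.4 to 33.8 FPKM in Sham to 9.52 to 12.0 in MI (SE 0.15, limma adjusted p = 0.0014). Ifngr2, a chain of the interferon-gamma receptor, rose by 1.30 from 3.99 to 8.82 FPKM to 13.7 to 18.6 (SE 0.27, limma adjusted p = 0.0092). Their partners Ifnar1 (-0.15) and Ifngr1 (0.38) were not called. The MI + DAPA rats kept Ifnar2 at 11.6 to 12.0 and Ifngr2 at 11.3 to 16.6 FPKM, and both were called against Sham in the same directions as in MI.

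None of the 6 transducers was called in MI, where 10.3% of all genes were called lower and 12.1% higher. The kinases Jak1 (log2 fold change 0.77, limma adjusted p = 0.022) and Jak2 (0.76, adjusted p = 0.045) passed the p but not the fold, and Tyk2 stood at -0.25 and Irf9 at -0.24. Of the 6 further interferon regulatory factors 3 were called higher and 1 lower. Irf5 and Irf8, both factors of myeloid cells, rose by 1.95 and 1.45 (limma adjusted p = 0.0013 and 0.0055). Irf3, which acts directly below the nucleic acid sensors, fell by 1.28, from 77.9 to 87.9 FPKM in Sham to 31.0 to 34.7 in MI (limma adjusted p = 0.0012). Irf4, a lymphocyte factor, was called higher in MI (1.54, limma adjusted p = 0.081) and lower in MI + DAPA against MI (-1.44, limma adjusted p = 0.56). Its MI level was 10.6 FPKM in rat 2 and 1.02 and 2.21 in rats 1 and 3, and MI rat 2 also had the highest sums of T cell, B cell and plasma cell markers.

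Of 13 sensors tested 1 was called higher in MI (7.69%, beside 12.1% of all genes) and 0 lower. Tlr7, the endosomal receptor of single-stranded RNA, rose by 1.71, from 1.30 to 1.63 FPKM in Sham to 6.84 to 7.45 in MI (limma adjusted p = 0.0010). The cytosolic RNA sensors Ddx58 (0.997) and Ifih1 (-0.80) and the endosomal Tlr3 (0.57) had an adjusted p under 0.05 by limma without the fold. In MI + DAPA rat 3, Ddx58 stood at 21.0 FPKM against at most 6.54 in the other rats.

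Of the 44 other interferon-stimulated genes tested in MI, 7 were called lower (15.9%) and 3 higher (6.82%), beside 10.3% and 12.1% of all genes, with a median log2 fold change of -0.47. Cmpk2, the neighbour of Rsad2 and a mitochondrial nucleotide kinase, fell by 1.80, from 12.3 to 14.2 FPKM in Sham to 2.73 to 3.79 in MI (limma adjusted p = 0.0010). Herc6, an enzyme of the ubiquitin-ligase family, fell by 2.21 and Helz2, a nuclear helicase, by 1.53 (limma adjusted p = 0.0024 and 0.0012). Lgals3bp, a secreted binding partner of galectins, rose by 1.63, from 30.1 to 44.4 FPKM to 95.3 to 129 (limma adjusted p = 0.0016). In MI + DAPA against MI, 1 of 45 was called lower and 1 higher (2.22% each, beside 1.11% and 0.951% of all genes). There 36 had a log2 fold change above 0. Without MI + DAPA rat 3 the 44 then tested had 6 above 0 and 4 called lower (9.09%, beside 1.58% of all genes). Against Sham 3 of 44 were called lower with rat 3 (6.82%, beside 8.16% of all genes). Without it 20 were (45.5%, beside 8.48%). That rat was the highest of the 9 in 38 of 45 of these genes, so leaving it out lowers their MI + DAPA means by construction.

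The 2 genes called there in MI + DAPA against MI are related copies of one another and their values are uncertain. Ifit1 was 36.1, 14.6 and 16.7 FPKM in Sham, 7.33, 13.3 and 11.1 in MI, and 4.89, 0.0903 and 0.0267 in MI + DAPA (log2 fold change against MI -2.59, limma adjusted p = 0.56). Ifit1bl was 3.15, 3.34 and 2.78 in Sham, 2.19, 1.36 and 2.90 in MI, and 6.97, 3.66 and 8.79 in MI + DAPA (log2 fold change 1.21, limma adjusted p = 0.56). Ifit1 was nearly unread in MI + DAPA rat 3, where Ifit3 was at its highest. Reads of such copies can be divided between them by the counting, and whether they were was not tested.

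Genes typical of interferon-gamma and the feedback regulators had calls in MI in both directions. Of 21 interferon-gamma-type genes tested, 2 were called lower (9.52%) and 1 higher (4.76%), with a median of -0.14. Over all genes 10.3% were called lower and 12.1% higher, so these counts do not exceed the background. Ciita, which switches on the class II antigen-presentation genes, rose by 1.59 (limma adjusted p = 0.011), and the immunoproteasome subunit Psmb10 fell by 1.21 (limma adjusted p = 0.017). Psme2, of the proteasome activator, stood at -0.79 and the peptide transporter Tap2 at -0.53. Of 7 feedback regulators 2 were called lower (28.6%) and 1 higher (14.3%), beside 10.3% and 12.1% of all genes. Usp18, which removes Isg15 from proteins and blocks Ifnar2 signalling, fell by 1.23 (limma adjusted p = 0.014), from 22.2 to 31.4 FPKM in Sham to 7.95 to 16.4 in MI, and was 6.72, 8.68 and 93.6 in the MI + DAPA rats. Trim24 fell by 1.32 and the phosphatase Ptpn6 rose by 1.38 (limma adjusted p = 0.010 for both), and Socs1 at 0.94 missed the fold.

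**Figure D5:**
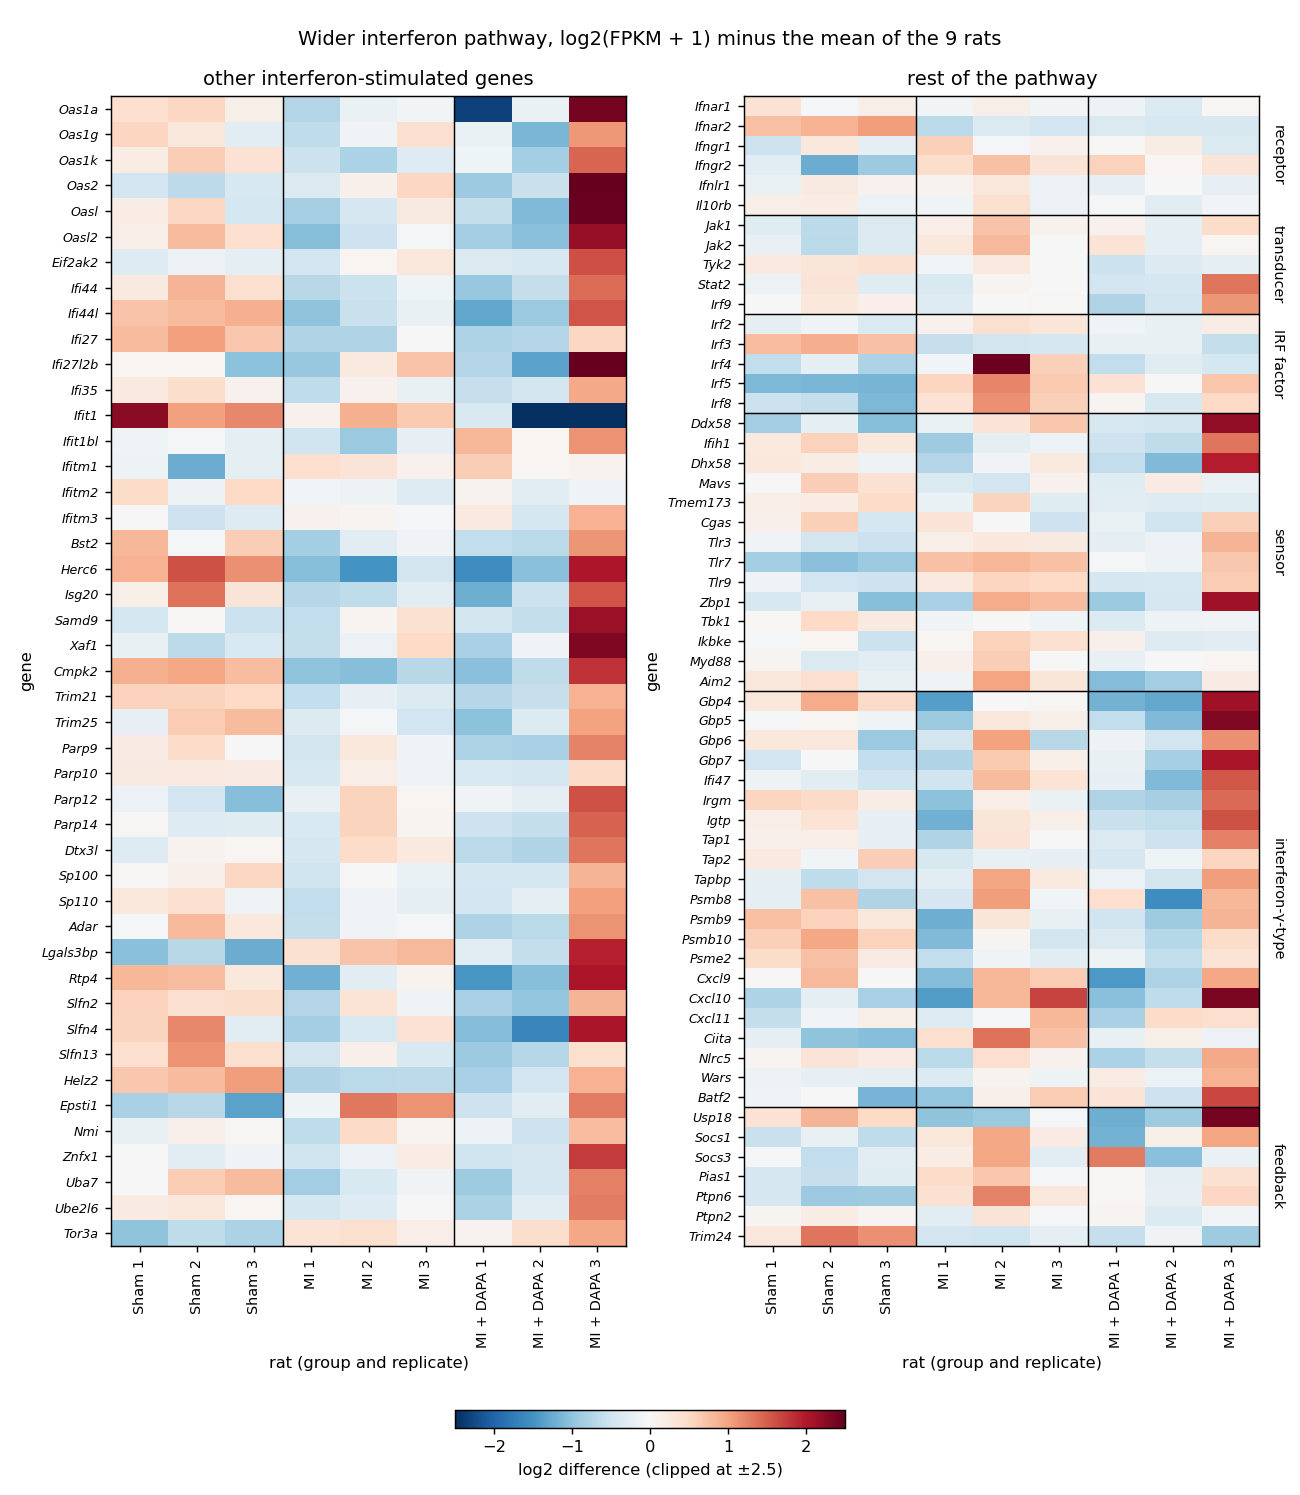
Level of wider-pathway genes in each rat as log2(FPKM + 1) minus its mean over the 9 rats (colour, clipped at 2.5 in either direction), with rats in columns and genes in rows by role. The column of MI + DAPA replicate 3 is red through most of the stimulated genes, where it is the highest rat in 38 of 45 (left) and 15 of 21 interferon-gamma-type genes (right), and 0 of 6 receptors.

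Cell-type markers also differed between MI + DAPA rat 3 and the other 2 rats of its group. It was the highest of the 9 rats in 0 of 9 macrophage, 0 of 7 endothelial, 0 of 8 T cell and 0 of 3 natural killer cell markers at testable levels. Its macrophage markers summed to 962 FPKM, against 498 and 432 in MI + DAPA rats 1 and 2 and 819 to 1567 in MI, so they were above those of its own group and within the range of MI. Its cardiomyocyte markers summed to 10018 FPKM, against 17869 and 20850 in rats 1 and 2, and its fibroblast markers to 3995, against 2180 and 2847. T cell markers summed to 68.9 against 35.6 and 40.4, and natural killer cell markers to 11.55 against 5.52 and 3.88. Rat 3 was thus the lowest of its group in cardiomyocyte markers and the highest in the fibroblast, T cell and natural killer cell markers, while each of these sums lay within the range of the MI rats. The 5 plasmacytoid dendritic cell markers summed to 17.8 FPKM in rat 3, most of it from Tcf4 at 15.5. The sums were 14.1 and 13.2 in rats 1 and 2, 13.0 to 16.4 in MI and 15.5 to 21.6 in Sham. Rat 3 thus lay within the Sham range. Siglech, the defining marker of plasmacytoid dendritic cells, which make much type I interferon, was 0.0261 FPKM in this rat and at most 0.267 in any other. Its depth of 14643487 reads and its mitochondrial share of 17.5% were the lowest of the MI + DAPA group. The part of these cell-type markers and of the mitochondrial share in the interferon levels of this rat was not tested.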

How the data were processed

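RNA was sequenced from the left ventricle in 9 samples, 3 per group, each taken as 1 rat. The authors deposited 1 table of FPKM values per gene and sample. Per the labels, mRNA was selected by poly-T beads, and the submitters' processing notes name HISAT2 2.0.5, StringTie 1.3.3b, featureCounts 1.5.0-p3 and DESeq2; the genome build is not given in the sources used here. FPKM steps gave whole reads for 18896 of 18896 genes above 0 in at least 4 rats (tolerance 0.002 of a read). Each comparison used limma 3.58.1 in R 4.3.3 on log2(FPKM + 1) with a trended prior and only the groups compared, over genes that reached an FPKM of 1 in 3 or more of the 6 rats. The pseudocount of 1 understates changes of low genes. Calls required a log2 fold change beyond 1 in either direction and an unadjusted p below 0.05, with Benjamini-Hochberg adjustment over all genes tested. All 9 genes passed the filter in each comparison. The fit was also run on simulated counts with the same spread in both groups. That setting does not cover the unequal spread of the 9 genes between the groups here. The members and gene lists were chosen with earlier results of these data known. Further pathway genes were named by rule, up to 4 of smallest p per role in MI against Sham and those called between MI + DAPA and MI; 2 genes that are in the counts are not reported here by name or drawn. Promoters came from RefSeq (GRCr8), and tables and plots used Python 3.11.15, numpy 2.4.6, pandas 2.3.3 and matplotlib 3.10.9.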

Additional observations from a re-analysis of the deposited data

How the results depend on the processing

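The limits of these results are the 3 rats per group and the scaling of the libraries, not read depth. On TPM over all genes, the 9 genes gave 0 lower and 4 higher calls in MI against Sham and 1 higher in MI + DAPA against Sham. There Gbp2, Ifit2, Ifit3, Irf7, Isg15 and Mx2 turned to 1.40, 0.34, 0.81, 1.33, 0.072 and 0.37 in MI against Sham, Ifit2, Irf7, Isg15 and Mx2 to 0.84, 0.73, 0.57 and 0.98 in MI + DAPA against Sham, and Gbp2 to -0.11 in MI + DAPA against MI. TPM without the mitochondrial genome turned Irf1 to -0.055 in MI + DAPA against Sham. With all 9 rats in one fit, 1 of the 9 genes was called lower in MI, and 8 of the wider pathway. The wider pathway on TPM over all genes gave 63 higher (61.2%, beside 64.6% of all genes) and 0 lower in MI against Sham. In MI + DAPA against Sham that scale gave 37 higher (37.8%, beside 48.6%) and 1 lower (1.02%, beside 1.08%). In MI + DAPA against MI it gave 5 lower (4.76%, beside 3.47%). Without a fold threshold it gave 20 higher and 34 lower, 11 and 12, and 6 lower in the same order of comparisons. In MI + DAPA against MI on the deposited scale, an adjusted p gave 0 higher and 0 lower. No filter gave 1 lower, beside 156 of all 22604 genes. A pseudocount of 0.1 gave 4 lower, beside 224 of all 13251 genes. The cause of these shifts was not tested, except that TPM over all genes lifts the median of all genes by 1.28 in MI.

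Leaving out 1 rat at a time, the 9 genes had 2 to 4 called lower and 0 to 1 higher in MI, 0 to 5 lower in MI + DAPA against Sham and 0 to 1 lower in MI + DAPA against MI. The fewest lower calls in MI came without MI rat 1, and both of the highest counts in MI + DAPA came without MI + DAPA rat 3. The wider pathway had 0 to 2 higher and 1 to 5 lower in MI + DAPA against MI, and 3 to 11 higher and 4 to 29 lower against Sham. Without MI + DAPA rat 3 the lower calls were 4.95% against MI and 28.7% against Sham, beside 1.58% and 8.48% of all genes. Fold changes that turned in MI + DAPA against MI ranged from -0.68 to 0.77 in Gbp2, -0.0044 to 1.33 in Ifit2, -0.46 to 0.24 in Irf1, -1.80 to 0.61 in Irf7, -0.52 to 1.60 in Isg15, -1.36 to 1.28 in Mx1, -0.47 to 1.72 in Mx2 and -0.23 to 1.49 in Rsad2. Against Sham they ranged from -0.78 to 0.68 in Gbp2, -1.16 to 0.17 in Ifit2, -0.58 to 1.26 in Ifit3, -0.35 to 0.34 in Irf1, -2.01 to 0.40 in Irf7, -1.94 to 0.18 in Isg15, -0.84 to 1.80 in Mx1 and -1.58 to 0.62 in Mx2. In MI against Sham they ranged from -0.35 to 0.34 in Gbp2, -0.084 to 0.42 in Irf1 and -0.81 to 0.29 in Irf7. In all 16 of the MI + DAPA ranges the lowest value came without MI + DAPA rat 3. This and the highest counts of lower calls largely follow from how that rat was picked. It was the highest of its group in 9 of the 9 genes, so leaving it out lowers each group mean.

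Replicate numbers were shared between groups but did not pair the rats. Deviations of same-numbered rats correlated at -0.0081 to 0.0734 in MI and Sham, -0.304 to 0.0308 in MI + DAPA and MI, and -0.0030 to 0.195 in MI + DAPA and Sham. With the replicate number as a block, 4 of the 9 genes were again called lower in MI and 0 in the comparisons with MI + DAPA, while all-gene calls in MI + DAPA against MI went from 126 higher and 147 lower to 71 and 146.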
